A study of Homo sapiens with 16 samples.

Results

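The 10 genes described here belong to the pluripotency programme and were followed through the neural differentiation of H9, an established human embryonic stem cell line: POU5F1, NANOG, LIN28A, LIN28B, TDGF1, L1TD1, DPPA4, ZFP42, PRDM14 and USP44. They were chosen by name as core stem cell genes, and all 10 were found among the 57736 genes of the count table. RNA was sequenced at 4 stages, D0, D12, D30 and D70, named for the day, with 2 control and 2 TMG libraries per stage, 16 libraries in all. TMG (Thiamet-G, dissolved in DMSO) inhibits O-GlcNAcase, the enzyme that removes O-GlcNAc from proteins, and was kept at 40 µM from the undifferentiated cells onwards, so the D0 TMG cells had received it too. Control cultures received the solvent. All cultures after D0 went through inhibition of SMAD signalling by LDN193189 and SB431542. A single cell line was used, so the spread between libraries is that between cultures of one genotype.

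Pluripotent cells hold their state through a small network of transcription factors, in which POU5F1 (OCT4), NANOG and PRDM14 act on each other's genes and on many others together with SOX2. Around this core stand an RNA-binding pair, LIN28A and LIN28B, which block the maturation of let-7 microRNAs, the Nodal co-receptor TDGF1, the RNA-binding protein L1TD1, the chromatin protein DPPA4, the zinc finger protein ZFP42 (REX1) and the deubiquitinase USP44. The core is shut down when the cells leave pluripotency, whereas LIN28A and LIN28B are also known from early neural progenitors. The comparisons below address how fast each gene was lost and what was left of it in the 2 arms.

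Library totals lay between 10334908 and 19836878 counts, so that 3 counts, taken here as the limit of detection in a library, were worth 0.151 to 0.29 CPM (counts scaled to the library total) on the raw totals. This limit covers counting error alone. Libraries were grouped by their titles. A separate treatment tag calls every replicate 1 library control and every replicate 2 library TMG and so goes against the title of 8 libraries. The sample codes in the descriptions and the column names of the count table go with the titles. The tag conflict is why each library is given its own value below. The neural progenitor gene PAX6 stood at 3.95 to 14.6 CPM in the libraries of D0 and at 246 to 587 CPM in 11 of the 12 later ones. The exception was D70 TMG replicate 2, with 2.5 CPM. The summed level of 8 mesenchyme markers was 30050 CPM in D30 TMG replicate 2 against 4516 to 5776 CPM in the other libraries of that stage. On D70 it was 45570 and 59710 CPM in the replicate 2 libraries of control and TMG and 7593 and 3843 CPM in replicate 1.

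The sequences behind the network are shown for 2 of its connections. The NANOG promoter from RefSeq (GRCh38.p14, chr12:7789152-7789451, plus strand, from 250 bases before to 50 bases after the start) holds the letters of a POU half-site, TTTGCAT, followed after 1 base by the core letters of a SOX site, ACAAT. Both strands were searched. The capitals mark this pair, which began 120 bases before the start.
NANOG promoter: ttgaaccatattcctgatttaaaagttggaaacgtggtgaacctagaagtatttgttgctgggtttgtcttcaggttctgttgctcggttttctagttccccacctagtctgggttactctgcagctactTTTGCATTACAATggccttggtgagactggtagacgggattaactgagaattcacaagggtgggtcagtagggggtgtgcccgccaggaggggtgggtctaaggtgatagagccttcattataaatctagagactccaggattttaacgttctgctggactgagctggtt
The pair was found in 6 of 35116 RefSeq promoters of this length (0.0171%), and TTTGCAT alone in 4.46% of them. The promoters of LIN28B (2 windows), L1TD1, DPPA4 and ZFP42 did not hold TTTGCAT. A match in letters is a description and not a site in use. The let-7 family that the LIN28 proteins act on shares its seed, bases 2 to 8, shown in capitals in RefSeq's mature sequences of 3 of its members.
let-7a-5p: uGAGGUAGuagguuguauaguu
let-7b-5p: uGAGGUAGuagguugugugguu
let-7g-5p: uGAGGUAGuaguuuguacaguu
Mature microRNAs were not measured in these libraries, which hold longer RNA.

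On D0 the members differed widely in level. Per kilobase of exon, POU5F1 was highest with 299 ± 16.9 CPM per kb (SD, n = 2 control libraries), followed by LIN28A with 237 ± 14.5. L1TD1 (150 ± 40.9), TDGF1 (128 ± 1.44) and DPPA4 (123 ± 13) came next and were not separated by their spread. USP44 (35.7 ± 12.5), LIN28B (22 ± 1.35), PRDM14 (18.8 ± 6.82), NANOG (16.8 ± 1.15) and ZFP42 (14.9 ± 0.988) formed the low end, where each neighbour in this order lay within the sum of the SDs of the next. By this measure NANOG, a central factor of the network, was among the members with the least RNA per length. The exon lengths were not from the annotation used for the counts, and reads of NANOG can be split with its copy NANOGP8. The order within the low end is therefore uncertain. In the TMG libraries of D0 POU5F1 (296 ± 8.94) and LIN28A (290 ± 5.44) overlapped, so these 2 were not separated there.

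**Figure D1:**
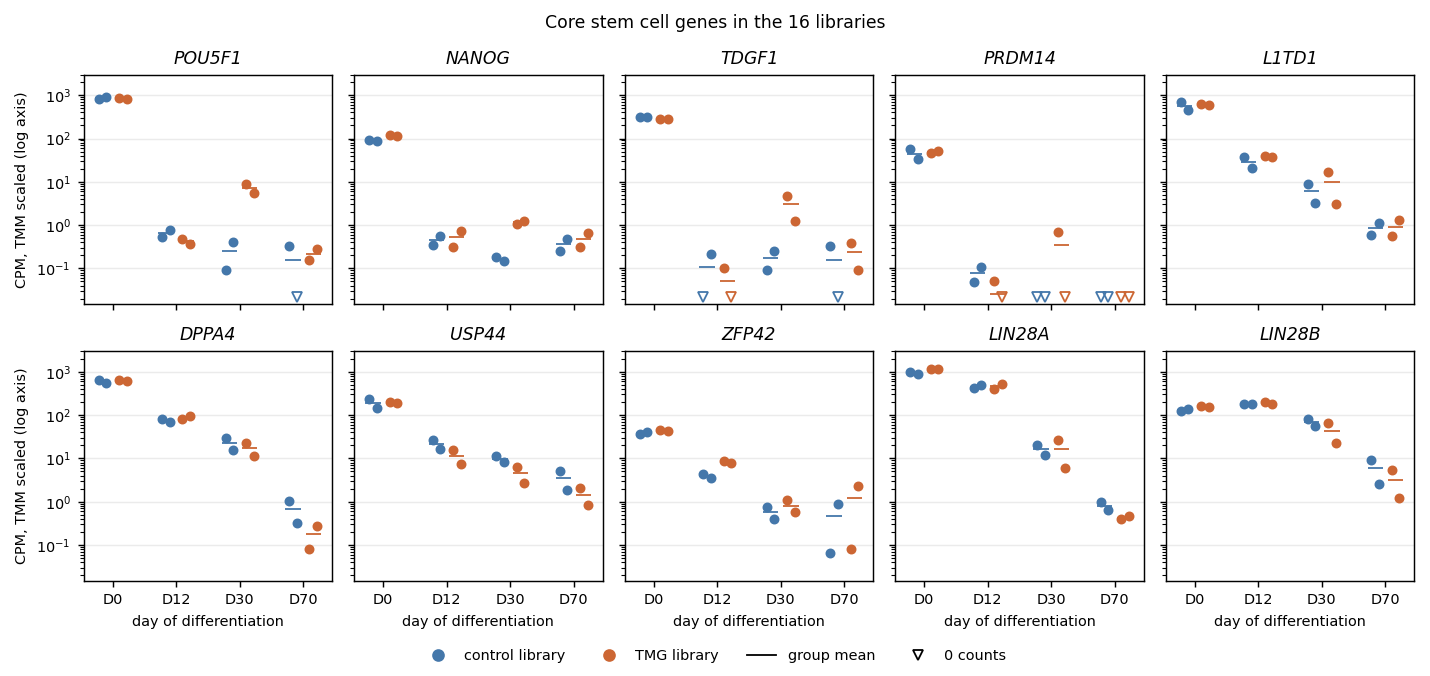
Level of each of the 10 genes (CPM on TMM library sizes, log axis) against the stage; each point is 1 library, blue for control and orange for TMG, the short lines are group means and open triangles are libraries with 0 counts. POU5F1, NANOG, TDGF1 and PRDM14 drop by D12, L1TD1, DPPA4 and USP44 step down from stage to stage in the group means, ZFP42 does so until D30, and LIN28A and LIN28B stay high on D12.

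By D12 the 10 genes had separated into 3 patterns. POU5F1, NANOG, TDGF1 and PRDM14 were at under 0.5% of their D0 level in the control arm. DPPA4, USP44, L1TD1 and ZFP42 were between 5.11% and 12.5% of it, and LIN28A and LIN28B kept 48.6% and 137% of it. In the control arm 8 of 10 members were called lower at D12 in edgeR's quasi-likelihood test at a false discovery rate (FDR) of 5%, against 9.71% of the 24249 genes tested. In the TMG arm 7 of 10 passed as lower, against 9.19% of all genes, and ZFP42 missed the threshold with an adjusted p of 0.0823. The median log2 fold change of the members in the control arm was -3.80, beside a median near 0 over all genes (0.00328). These are RNA levels of whole cultures, in which fewer cells of a type and less RNA per cell cannot be told apart.

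POU5F1, the factor most specific to the pluripotent state, had 13343 and 12768 counts in the control libraries of D0 and 12658 and 16153 in the TMG libraries. On D12 the same order of libraries gave 11, 14, 9 and 6 counts. Every library of D12 lay far below every library of D0, and the log2 fold change was -10.35 (SE 0.62) in control and -10.95 (SE 0.64) in TMG (edgeR, adjusted p = 2.6e-05 and 2.77e-05). TDGF1, which the cells display as a co-receptor of Nodal, fell from between 4112 and 5405 counts to 0 and 4 counts in control and 2 and 0 in TMG. Its D0 level over that of D12 in the TMG arm was 4950-fold, with a 95% counting interval of 1370 to 40900 from 2 counts. PRDM14 fell from between 472 and 1003 counts to 1 and 2 in control and 1 and 0 in TMG. The control ratio was 581-fold with a counting interval of 198 to 2820.

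NANOG kept a little more than POU5F1. Its 1229 to 2198 counts of D0 became 7 and 10 counts in the control and 6 and 12 in the TMG libraries of D12. That was 0.493% of the D0 level in control and 0.451% in TMG, where POU5F1 was at 0.0761% and 0.0494%. Its log2 fold change was -7.65 (SE 0.43) in control and -7.80 (SE 0.43) in TMG (edgeR, adjusted p = 1.67e-05 and 2.09e-05).

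The 4 genes of the second pattern fell by D12 without being lost. DPPA4, a chromatin protein of pluripotent and germ cells, went from 658 and 566 CPM to 83.0 and 70.3 CPM in control and from 647 and 611 CPM to 82.2 and 97.3 CPM in TMG. Every D12 library lay below every D0 library, and the log2 fold change was -3.00 (SE 0.45, adjusted p = 0.00257 by edgeR) in control and -2.81 (SE 0.44, adjusted p = 0.00316) in TMG. L1TD1, which binds RNA and is itself derived from a LINE-1 element, changed by -4.29 (SE 0.74, adjusted p = 0.00473 by edgeR) in control and -3.96 (SE 0.73, adjusted p = 0.00606) in TMG. Its call in TMG was lost without either D12 TMG library, while its log2 fold change stayed between -3.99 and -3.93 over the leave-outs. USP44, a deubiquitinase of histone H2B, changed by -3.13 (SE 0.59) in control and -4.10 (SE 0.62) in TMG (edgeR, adjusted p = 0.00689 and 0.00265).

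ZFP42, the marker known as REX1, had 37.6 and 41.3 CPM in the D0 control libraries and 4.28 and 3.61 CPM on D12. In TMG it went from 45.1 and 43.2 CPM to 8.73 and 8.01 CPM, so that 19.0% of its D0 level was left against 9.99% in control. The TMG libraries of D12 lay above the control libraries, as in 17.8% of all genes tested. The difference in level, a log2 fold change of 1.08 (SE 0.84), did not pass (adjusted p = 1.0 by edgeR, unadjusted p = 0.226). Without control replicate 2 of D12 the number of members called in the control arm fell from 8 to 5, since L1TD1, USP44 and ZFP42 then missed the threshold. ZFP42 missed it without any 1 of the 4 control libraries compared, and also with no filter on low counts.

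LIN28A and LIN28B took another course. LIN28A stood at 984 and 903 CPM in control and 1167 and 1136 CPM in TMG on D0, and at 419, 497, 391 and 536 CPM on D12 in the same order. All D12 libraries were lower than all D0 libraries, yet the log2 fold changes of -1.04 (SE 0.50) and -1.31 (SE 0.51) did not pass (edgeR, adjusted p = 0.182 and 0.102). A fit of the compared libraries alone did call LIN28A lower in each arm. LIN28B was the single member with more RNA on D12 than on D0 in every library. It went from 125 and 136 CPM to 178 and 179 CPM in control and from 165 and 156 CPM to 197 and 180 CPM in TMG. This difference of 0.45 (SE 0.63) and 0.23 (SE 0.63) on the log2 scale did not pass either (adjusted p = 0.662 and 0.843 by edgeR), and 95% intervals of -0.99 to 1.89 and -1.21 to 1.67 span both a fall and a rise.

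The loss of each other member relative to POU5F1 was then tested as their ratio inside a library, which does not depend on library scaling. The patterns had been read from the same libraries, and no order among the other members was tested. Over the 4 libraries of D0 and the 4 of D12, arms pooled, every one of the 9 other members shifted against POU5F1 with an exact two-sided permutation p of 0.0286, the smallest that 4 against 4 libraries can give, and 0.0286 after adjustment over the 9. The shift was 10.95 on the log2 scale for LIN28B and 9.42 for LIN28A, or 685 times as much LIN28A left as POU5F1. For the second pattern it lay between 6.47 for L1TD1 and 7.75 for ZFP42, and for NANOG it was 2.88, or 7.37-fold. PRDM14 (1.27) and TDGF1 (-1.44, more lost than POU5F1) rest on 0 to 4 counts per library on D12. With a pseudocount of 2 counts in place of 0.5 the value for TDGF1 was -0.38 and no longer passed.

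**Figure D2:**
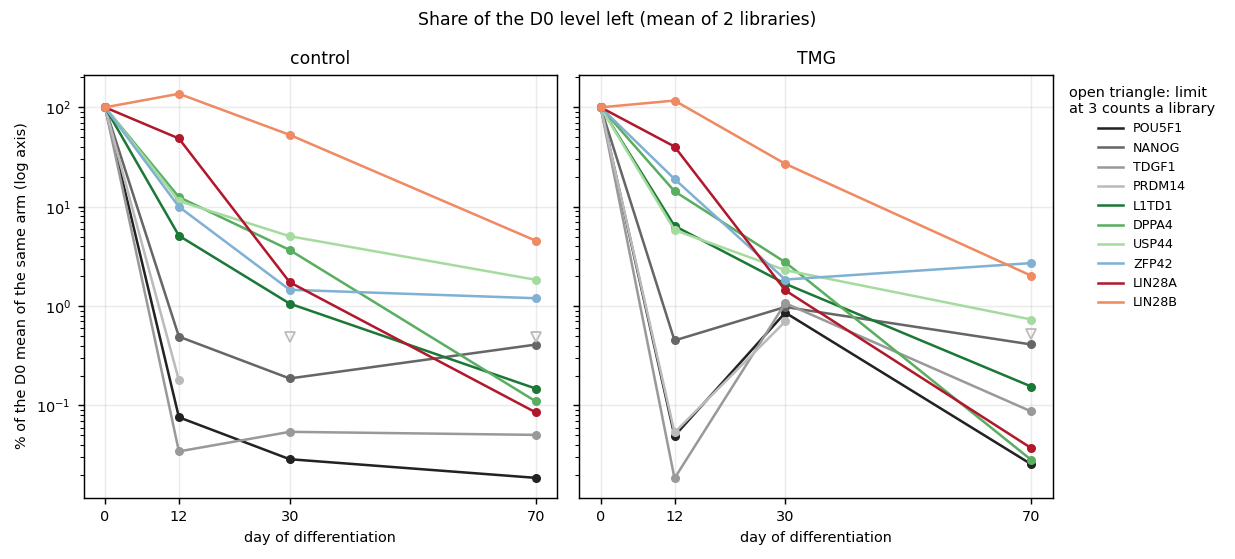
Mean level of each gene as a percent of its D0 mean in the same arm (log axis) against the day, for control and TMG cultures (2 libraries per point); open triangles mark PRDM14 where both libraries had 0 counts, drawn at the level of 3 counts. On D70 LIN28B keeps the most in control (4.55%) and comes after ZFP42 in TMG (2.02% against 2.71%), and in the TMG panel POU5F1, NANOG and TDGF1 stand at 0.86% to 1.07% on D30.

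Between D12 and D30 the largest fall among the members tested was that of LIN28A. Its level fell to 20.6 and 12.2 CPM in control and to 27.1 and 5.96 CPM in TMG, which left 1.74% and 1.44% of D0. The log2 fold change was -4.81 (SE 0.59) in each arm (edgeR, adjusted p = 0.0068 and 0.0181). DPPA4 was the other member that passed as lower, by -1.78 (SE 0.43, adjusted p = 0.0488) in control and -2.37 (SE 0.44, adjusted p = 0.0483) in TMG. These were 2 of 7 members that had counts enough for a test in control, against 1.69% of all genes, and 2 of 9 in TMG, against 0.124%. Both calls depend on single libraries: leaving out D12 control replicate 1, D12 control replicate 2 or D30 control replicate 1 ended the control calls, without D30 control replicate 2 LIN28A alone was called, and leaving out either D12 TMG library ended the TMG calls. RLE normalization or no filter ended the control call of DPPA4, and a fit of the compared libraries alone ended both TMG calls. LIN28B fell less, to 81.7 and 56.6 CPM in control and 64.7 and 22.3 CPM in TMG, with no call (adjusted p = 0.256 and 0.178 by edgeR).

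From D30 to D70 LIN28A and DPPA4 went down once more. In control LIN28A reached 15 and 8 counts (log2 fold change -4.32, SE 0.63, adjusted p = 0.0272 by edgeR) and DPPA4 16 and 4 counts (-4.99, SE 0.54, adjusted p = 0.0114), which made 2 of 5 members tested against 0.0784% of all genes. LIN28A missed the threshold without any 1 of the 4 libraries compared, and DPPA4 without either D30 control library. Without D70 control replicate 1, LIN28B passed beside DPPA4. A fit of the compared libraries alone ended these calls and that of DPPA4 in TMG. In TMG DPPA4 reached 1 and 3 counts (-6.59, SE 0.66, adjusted p = 0.0209), 1 of 9 members tested against 0.00412% of all genes, and 2 without either D30 TMG library or 4 without D70 TMG replicate 1, while LIN28A with 5 and 5 counts had an adjusted p of 0.0745. In these later steps a member mostly reached the minimum of 10 counts through the stage in which it was higher, so these counts of members describe the tested ones and support no more. LIN28B was down to 9.32 and 2.58 CPM in control and 5.29 and 1.2 CPM in TMG. The replicate 2 library was the lower in each arm, and it was the replicate 2 libraries that held the high mesenchyme sums given above. Whether the makeup of the cultures had a part in the LIN28B level was not tested.

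Set against D0, 9 of 10 members passed as lower on D30 in control, against 16.7% of all genes, and the same 9 in TMG, against 14.4%. The member left out was LIN28B (-0.92, SE 0.63, adjusted p = 0.293 by edgeR in control, and -1.89, SE 0.65, adjusted p = 0.0516 in TMG). On D70 all 10 passed in each arm, against 14.7% of all genes in control and 14.1% in TMG. LIN28B had a log2 fold change of -4.44 (SE 0.73) in control and -5.61 (SE 0.78) in TMG (edgeR, adjusted p = 0.00164 and 0.000703). USP44 retained the next most in control with 1.84% of D0, or 81 and 23 counts. ZFP42 on D70 split by replicate, with 1 and 11 counts in control and 1 and 25 in TMG, the higher of which was 5.24% of the D0 level of its arm. PRDM14 had 0 counts in all 4 libraries of D70, at least 421-fold below D0 in control and 384-fold in TMG against a floor of 3 counts over the 2 libraries of a group.

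TMG made no difference that could be called on D0. POU5F1 had 824 and 893 CPM in control and 868 and 832 CPM in TMG, and its log2 fold change was -0.01 (SE 0.40, 95% interval -0.94 to 0.92). The members' fold changes ran from -0.18 for TDGF1 to 0.38 for NANOG. None of 10 members passed by edgeR (0.0% of all genes) or had an unadjusted p under 0.05 (1.26% of all genes), and DESeq2 called none either (0.0206% of all genes). NANOG, LIN28A, LIN28B and ZFP42 were higher in both TMG libraries than in both control libraries and TDGF1 was lower in both. Over all genes 19.7% and 16.9% separated in this way.

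On D12 the picture was much the same. Of 8 members with enough counts none passed by edgeR (0.0% of all genes), none had an unadjusted p under 0.05 (2.48% of all genes) and none passed by DESeq2 (0.0454% of all genes). The fold changes lay between -0.93 (SE 0.56) for USP44 and 1.08 for ZFP42. The step from D0 to D12 did not differ between the arms for any of 10 members by edgeR (0.0% of all genes, 1.07% at an unadjusted p under 0.05, where the members again gave 0) or by DESeq2 (0.0124% of all genes).

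On D30 POU5F1, TDGF1 and NANOG had more counts in both TMG libraries than in both control libraries. By CPM 23.1% of all genes tested were higher in both TMG libraries of this stage, and 21.0% were lower. POU5F1 had 1 and 8 counts in the control libraries and 94 and 58 counts in the TMG libraries, or 0.094 and 0.402 CPM against 9.13 and 5.49 CPM. The 2 TMG libraries thus stood at 1.07% and 0.646% of the D0 level, with no overlap with control. TDGF1 had 1 and 5 counts in control and 49 and 13 in TMG, 1.70% and 0.439% of D0 in the latter. NANOG had 2 and 3 counts in control and 11 and 13 in TMG, 0.911% and 1.05% of D0. PRDM14 was found in TMG replicate 1 alone, with 7 counts, and had 0 in the other 3 libraries of D30.

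The log2 fold change of TMG against control on D30 was 4.65 (SE 0.58, 95% interval 3.31 to 6.0) for POU5F1, 3.90 (SE 0.96, 1.69 to 6.12) for TDGF1 and 2.74 (SE 0.51, 1.56 to 3.93) for NANOG. With 24249 genes tested none of them passed by edgeR, whose adjusted p-values were 0.0868, 0.194 and 0.155 and which called 0 of 8 members and 0.0% of all genes at this stage. With no filter on low counts POU5F1 and NANOG passed. The same 2 passed with a replicate block, though the labels do not say what replicates of the same number share. In the main fit the unadjusted p-values of POU5F1, TDGF1 and NANOG by edgeR were 7.16e-06, 0.00197 and 0.000241. DESeq2 called these 3 as higher (adjusted p = 1.65e-11, 0.0017 and 0.0148). Of all genes 7.1% were higher at an unadjusted p under 0.05 and 1.56% by DESeq2. The 3 members reached the minimum of 10 counts through the TMG libraries alone, in which they were high, and ZFP42 and PRDM14 did not reach it, so no support is drawn from their number against these shares. Within the TMG arm POU5F1 was called higher on D30 than on D12 by edgeR, by 4.08 (SE 0.54, adjusted p = 0.0181), 1 of 9 tested against 0.388% of all genes. It too reached the minimum through D30 alone, and the call was lost without either D12 TMG library and with the compared libraries fitted alone. Summed markers of some other cell types were also higher in both TMG libraries of D30. For neurons they were 815 and 1037 CPM against 564 and 680 CPM, and for mesenchyme 5776 and 30050 CPM against 4516 and 5362 CPM. For endoderm and mesoderm they were 8.74 and 11.7 CPM against 4.70 and 5.47 CPM, where 5 of 8 and 4 of 8 markers had a count. Those of neural progenitors overlapped, with 2585 and 3631 CPM in TMG against 2619 and 2927 CPM in control. The part of these sums in the result was not tested. Leaving out TMG replicate 2 of D30, which leaves a single TMG library, gave 4.97 for POU5F1, 4.57 for TDGF1 and 2.64 for NANOG against control. Without TMG replicate 1 they were 4.24, 2.63 and 2.84, and POU5F1 then passed by edgeR (adjusted p = 0.0303, against 0.196 to 0.727 with each of the other 3 libraries left out). By the treatment tags the libraries with 0.094 and 9.13 CPM of POU5F1 would form one arm and those with 0.402 and 5.49 CPM the other.

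**Figure D3:**
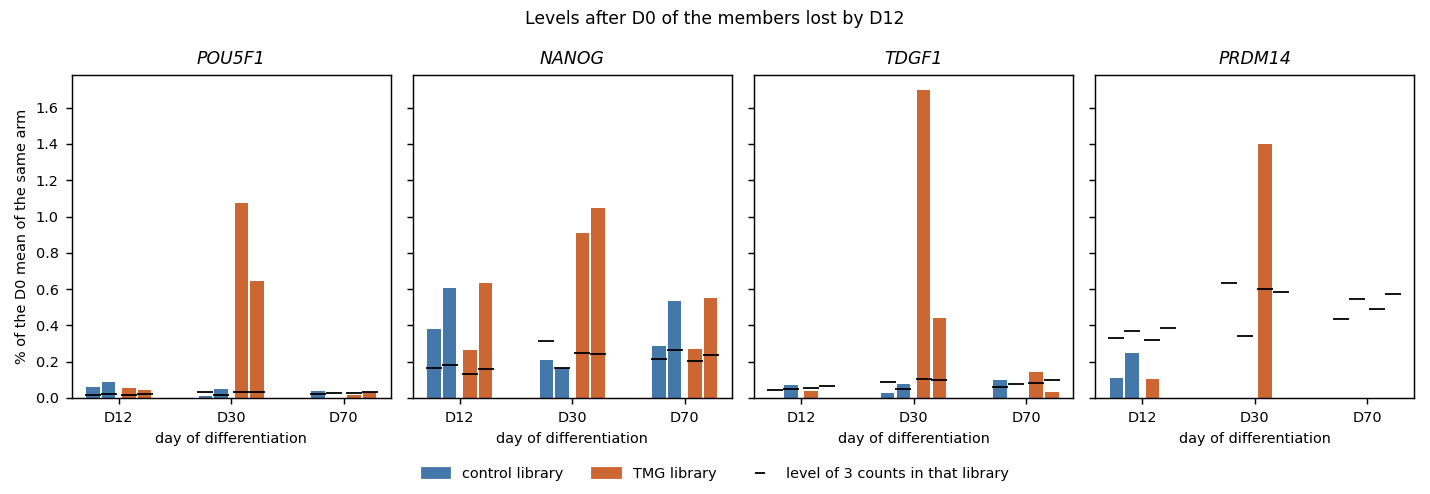
Level of POU5F1, NANOG, TDGF1 and PRDM14 after D0 as a percent of the D0 mean of the same arm; each bar is 1 library (blue control, orange TMG) and each black tick is the level that 3 counts would give in it. On D30 both TMG bars of POU5F1 (1.07% and 0.646%), NANOG and TDGF1 rise above both control bars, while PRDM14 shows a bar in a single TMG library. Of all genes tested 23.1% were higher in both TMG libraries of D30.

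The genes that were lost slowly gave smaller differences or the opposite direction. On D30 LIN28A was 20.6 and 12.2 CPM in control against 27.1 and 5.96 CPM in TMG, DPPA4 29.4 and 15.5 CPM against 23.3 and 11.4 CPM, and USP44 11.3 and 8.08 CPM against 6.41 and 2.65 CPM. In LIN28A and DPPA4 the arms overlapped, and in USP44 both TMG libraries were lower, as in 21.0% of all genes tested. Their log2 fold changes were 0.02 (95% interval -1.17 to 1.2), -0.37 (-1.35 to 0.61) and -1.09 (-2.45 to 0.27), and LIN28B gave -0.67 (-2.13 to 0.79). L1TD1 gave 0.74 (-0.85 to 2.33), with 8.93 and 3.31 CPM against 17.1 and 3.03 CPM. The difference between these genes and POU5F1, TDGF1 or NANOG was not tested. TMG replicate 2 was the lowest library of the stage in these 5 genes. ZFP42 had too few counts for a test, and control replicate 2 was its lowest library. Its levels were 0.752 and 0.402 CPM in control and 1.07 and 0.568 CPM in TMG. Without TMG replicate 2 the values were 0.73 for LIN28A, 0.06 for DPPA4, -0.59 for USP44, -0.09 for LIN28B and 1.51 for L1TD1. Without TMG replicate 1 they were -1.45, -0.98, -1.86, -1.63 and -0.99 in the same order. The part of the culture's makeup in these levels was not tested.

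Whether the step from D12 to D30 differed between the arms was tested directly, on libraries shared with the comparisons above. The difference was 5.26 (SE 0.85) for POU5F1, 4.71 (SE 2.12) for TDGF1 and 2.52 (SE 0.69) for NANOG on the log2 scale. For TDGF1 it was 0.96 without D12 control replicate 2 and 7.65 without D12 TMG replicate 1. Over all leave-outs it ranged from 4.77 to 6.77 for POU5F1 and from 2.00 to 3.24 for NANOG. None of 9 members passed by edgeR (adjusted p = 0.823, 1.0 and 1.0, with 0.0% of all genes called), 3 had an unadjusted p under 0.05 as higher where 1.83% of all genes did, and DESeq2 called POU5F1 (adjusted p = 9.64e-07) and 0.0371% of all genes. TDGF1 entered this test through the high TMG libraries of D30 alone, and the same libraries gave the D30 differences above, so these counts are no independent support. For the step from D30 to D70 the difference was -4.38 (SE 1.2) for POU5F1 and -2.36 (SE 0.74) for NANOG. Both reached 10 counts in the TMG libraries of D30 alone, which also set the direction, so nothing is read from their number. Again none of 9 passed by edgeR (0.0% of all genes), 2 were lower at an unadjusted p under 0.05 against 2.42%, and none passed by DESeq2 (0.0619% of all genes). Without control replicate 1 of D70, which held all 5 control counts of POU5F1 at that stage, its value was 0.10.

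On D70 the arms of POU5F1, TDGF1 and NANOG no longer separated. POU5F1 had 5 and 0 counts in control and 2 and 3 in TMG, TDGF1 5 and 0 against 5 and 1, and NANOG 4 and 6 against 4 and 7. NANOG was above the 3-count limit in all 4 libraries and stood at 0.41% of D0 in control and 0.411% in TMG, near its D12 level. The groups overlapped in all 3 genes, and a library with 3 counts of POU5F1 would stand at 0.0225% to 0.0326% of D0, so differences below this were not detectable. Of 4 members with enough counts for a test, none passed by edgeR (0.0% of all genes) or at an unadjusted p under 0.05 (5.49% of all genes), and none by DESeq2 (0.227% of all genes). The largest of the 4 in size were ZFP42 with 1.35 (SE 1.07) and USP44 with -1.28 (SE 0.65), and in both the arms overlapped. LIN28A and DPPA4 had too few counts for a test but were lower in both TMG libraries than in both control libraries, as were 12.4% of all genes tested. LIN28A had 0.964 and 0.644 CPM in control and 0.395 and 0.462 CPM in TMG. DPPA4 had 1.03 and 0.322 CPM in control and 0.079 and 0.2775 CPM in TMG. These were 16 and 4 counts against 1 and 3, so its separation rested on 4 against 3 counts, at the limit of detection.

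**Figure D4:**
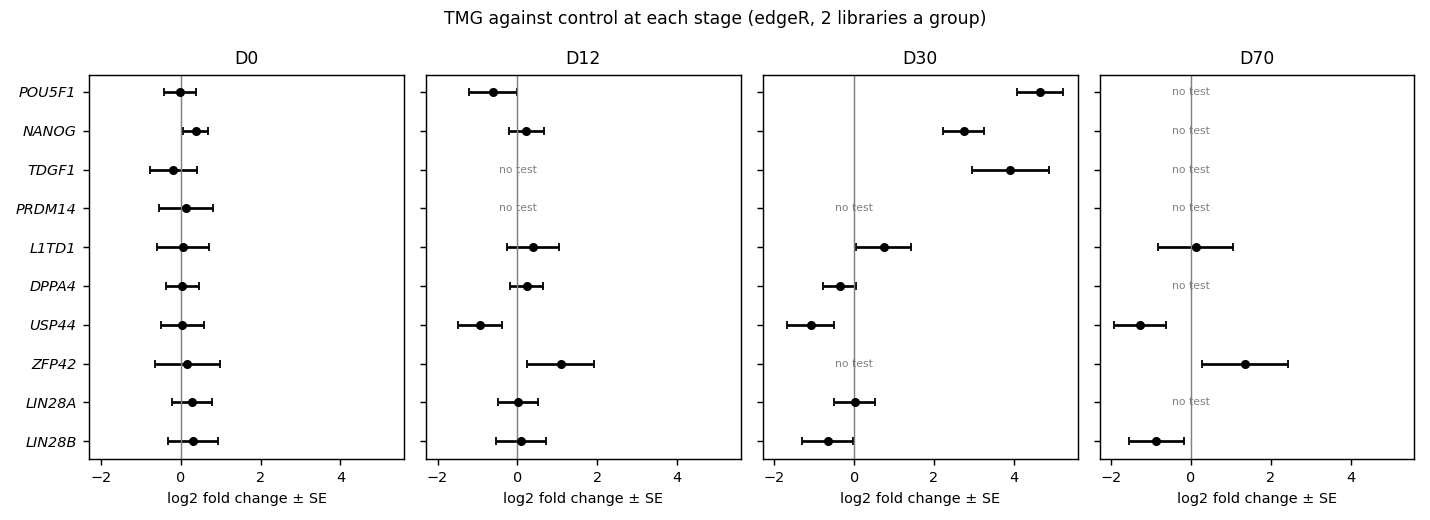
Log2 fold change of TMG against control with its SE at each stage for each gene (edgeR, 2 libraries per group); genes with fewer than 2 libraries of 10 counts at a stage are marked as having no test. On D0 and D12 all values lie between -0.93 and 1.08, and on D30 POU5F1, TDGF1 and NANOG lie between 2.74 and 4.65.

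Several members have near-identical copies elsewhere in the genome, between which reads can be split, so the trace counts of POU5F1, NANOG and TDGF1 are uncertain to that extent. On D0 NANOGP8 had 348 to 575 counts where NANOG had 1229 to 2198, and TDGF1P3 had 353 to 500 where TDGF1 had 4112 to 5405. POU5F1B behaved otherwise. It had 59 to 93 counts on D0 and 69 to 230 on D12, when POU5F1 itself had 6 to 14, and 5 to 88 on D70. On D30 it had 60 and 73 counts in control and 70 and 34 in TMG, so that its arms overlapped where those of POU5F1 did not. Exons of POU5F1 (GRCh37, chr6:31132114-31148508, minus strand) share 248 bases with TCF19 on the other strand, and those of TDGF1 (chr3:46616024-46623947, plus strand) share 110 bases with LRRC2. By the same annotation (GENCODE v44 lifted to GRCh37) the other members lie at chr12:7940390-7951742 (NANOG, plus), chr1:26737308-26756219 (LIN28A, plus), chr6:105384491-105531207 (LIN28B, plus, sharing 181 exon bases with LIN28B-AS1), chr1:62660521-62678000 (L1TD1, plus), chr3:109044991-109056393 (DPPA4, minus), chr4:188916925-188926200 (ZFP42, plus), chr8:70963886-70983928 (PRDM14, minus) and chr12:95910336-95945252 (USP44, minus). Counts are per gene, over all its exons and UTRs. The library kit is not stated to keep the strand, so reads from these stretches cannot be told apart.

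Genes around the members were counted from lists written for this tissue. Of 35 tested genes of the wider pluripotency network, 24 passed as lower on D12 against D0 in control and none as higher, with a median log2 fold change of -3.33 beside 0.00328 over all genes. Over all genes 9.71% passed as lower and 6.97% as higher in this comparison. Among the genes that fell were the long non-coding RNA ESRG (-9.44) and the zinc finger gene ZSCAN10 (-8.20). LNCPRESS1, at 8.47 and 9.44 CPM in the D0 controls, and the growth factor GDF3, at 3.77 and 3.57 CPM, had 0 counts in all libraries of D12, so no fold is given for them. For TMG against control on D30 the median of the 35 was 0.115 beside 0.0113 over all genes. ESRG was at 0.188 and 0.351 CPM in control and 7.48 and 2.08 CPM in TMG (log2 fold change 4.01, SE 0.72, adjusted p = 0.152). ZSCAN10 had 0.752 and 1.25 CPM in control and 5.15 and 1.14 CPM in TMG, so its arms overlapped.

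Of 17 genes of Nodal signalling, in which TDGF1 serves, 7 passed as lower and 1 as higher on D12 in control, beside the shares of 9.71% and 6.97% over all genes. Among the 7 were FOXH1 (-6.15), the transcription factor through which Nodal acts, GDF3, a ligand of the same family, and the antagonist CER1, which went from 0.618 and 3.36 CPM to 0 counts in both control libraries. Another was TDGF1P3 (490 and 377 counts to 1 and 0), the near-identical copy that can take reads of TDGF1. Of 24 genes of the LIN28 and let-7 axis 4 passed as lower and 2 as higher, with a median of -0.221, and the share of higher calls lay close to that over all genes. Those named by the size of their change were MYCN (-2.53), a known let-7 target, the chromatin protein gene HMGA1 (-1.85) and 2 host transcripts of let-7 genes, MIRLET7BHG, at 1.92 and 0.42 CPM on D0 and 0.0983 and 0 CPM on D12 in control, and MIR100HG (1.89). The 12 tested genes of naive pluripotency and the germ line had a median of -0.22. Markers of neural progenitors rose in 3 of 8 cases, among them PAX6 (5.97), those of neurons in 2 of 8 and those of mesenchyme in 1 of 8, the last close to the share of 6.97% over all genes.

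The genes most like a member over the 16 libraries were sought by Pearson's r of log2 CPM, as a description in which all points share the course of differentiation. For POU5F1 they were D21S2088E (0.986), TDGF1 (0.985), TDGF1P3 (0.982), ESRG (0.980) and LRAT (0.977), a gene of retinol metabolism. For LIN28A they were ARID3B (0.980), NR6A1 (0.979), IGF2BP3 (0.978), TRIM71 (0.971) and DPPA4 (0.968). TRIM71, itself a let-7 target, went from 843 CPM in the D0 controls through 456 and 47.4 CPM to 20.3 CPM in those of D70. For LIN28B they were IGDCC3 (0.973), GPR19 (0.972), NSD2 (0.952), PHF6 (0.951) and ACTN3 (0.951). LIN28B resembled LIN28A (0.929) and DPPA4 (0.917) more than POU5F1 (0.468).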

How the data were processed

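Per the labels and the study's methods, total RNA of 16 H9 cultures was depleted of rRNA and sequenced, and the authors used Bowtie2 with hg19 and RSEM 1.2.12, and deposited one estimated count per Ensembl gene and library, as whole numbers and not normalized. No further rounding was needed, and the way they became whole is not given in the sources used here. The study itself used DESeq2. Here edgeR 4.0.16 (R 4.3.3) was used with TMM, filterByExpr (minimum count 10, minimum total count 15, 24249 genes), 1 mean for each of 8 groups over 16 libraries, a robust quasi-likelihood F-test and Benjamini-Hochberg adjustment over all genes of a comparison at an FDR of 5%. Intervals use the 8 residual degrees of freedom. Where the replicates share only a number and no stated culture, they were not paired. A member was tested at a stage only where 2 of the libraries compared had 10 counts or more. DESeq2 1.42.0, RLE normalization, no filter, a replicate block, fits of the compared libraries alone and leaving out each library were the alternatives. CPM are on TMM library sizes. Ratios to POU5F1 used a pseudocount of 0.5 counts and an exact permutation test (scipy 1.17.1).

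All 10 members were named, with up to 4 genes per list by size of change among those passing on D12 against D0 in control, near-identical copies, and the 5 genes most like POU5F1, LIN28A and LIN28B. Members and lists were chosen with earlier results of these data known. Promoter and microRNA sequences came from RefSeq tables (GRCh38.p14), in which 5 of 10 members had a promoter. On simulated counts with 200 genes lowered 4-fold in both arms of D30, edgeR recovered 120 of them for D30 against D0 in control, with 5 false calls. The 200 were picked among genes with high counts, and all libraries were drawn from the D0 control means. This recovery does not apply to members with few counts. Library totals were 10334908 to 19836878.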

Additional observations from a re-analysis of the deposited data

Results flagged for a closer look

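TDGF1 is given here because its 2 arms separated in opposite directions at 2 stages. On D0 both TMG libraries (282 and 278 CPM) lay below both control libraries (320 and 315 CPM), and on D30 both TMG libraries (4.76 and 1.23 CPM) lay above both control libraries (0.094 and 0.251 CPM). Of all genes tested 16.9% were lower in both TMG libraries on D0, and 23.1% were higher in both on D30. The D0 log2 fold change of TDGF1 was -0.18 (SE 0.60, unadjusted p = 0.771 by edgeR), smaller than its error. The log2 fold change of TMG against control on D30 minus that on D0 was 4.08. This difference was not tested. The groups hold 2 libraries each, too few for a search for single outlying libraries.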

How the results depend on the processing

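Of 450 alternative values for members between stages, 384 kept their direction and their side of the threshold, 37 lost the call, 28 gained it and 1 changed sign. Among 270 for TMG against control the numbers were 240, 0, 8 and 22. The cause of these shifts was not tested. Members called on D30 against D12 in control, 2, became 1 with RLE or no filter, 6 with the compared libraries alone and 4 with DESeq2, and on D70 against D30 2 became 0 with the compared libraries alone and 4 with DESeq2. In TMG, 3 on D30 against D12 became 0 with the compared libraries alone and 6 with DESeq2, and 1 on D70 against D30 became 2, 0 and 6 with no filter, the compared libraries alone and DESeq2. For TMG against control on D30, 0 became 2 with no filter, 2 with a replicate block (NANOG and POU5F1) and 3 with DESeq2, and for the difference between arms from D12 to D30, 0 became 1 with DESeq2. Leaving out 1 library gave 5 to 7 calls on D12 against D0 in control, 0 to 1 on D30 against D12 and 0 to 2 on D70 against D30, in TMG 0 to 3 and 1 to 4 in the latter pair, and 0 to 1 for TMG on D30. It turned the sign of TMG against control for POU5F1 (-0.07 to 0.04), L1TD1 (-0.20 to 0.36), DPPA4 (-0.07 to 0.15), PRDM14 (-0.20 to 0.56) and USP44 (-0.28 to 0.45) on D0. It did so for NANOG (-0.50 to 0.74) and LIN28A (-0.23 to 0.23) on D12, for LIN28A (-1.45 to 0.73), L1TD1 (-0.99 to 1.60) and DPPA4 (-0.98 to 0.16) on D30, and for LIN28B (-2.31 to 0.35), L1TD1 (-0.59 to 0.67) and ZFP42 (-2.38 to 4.05) on D70. LIN28A on D30 was -0.01 with no filter, -0.27 with the block and -0.01 with the compared libraries alone. ZFP42 on D70 against D30 in TMG ranged from -3.24 to 1.49, and the difference between arms from D30 to D70 from -5.88 to 0.10 for POU5F1 and -4.77 to 1.08 for TDGF1. The loss relative to POU5F1 was -0.38 for TDGF1 with a pseudocount of 2, and 7.0 and 8.50 for ZFP42 in control and TMG alone. The median percent left on D70 was 0.134 with RLE and 0.127 on raw totals in control and 0.104 on raw totals in TMG. With the main scaling it lay between 0.11 (DPPA4) and 0.148 (L1TD1) in control. In TMG it lay between 0.087 (TDGF1) and 0.155 (L1TD1). The labels do not say what replicates of the same number share. Their deviations correlated by 0.0453, 0.367, 0.223 and 0.607 from the earliest to the latest stage, so not at every stage, and the block was kept as an alternative. A group left with 1 library is assumed to vary like the others. With 2 libraries per group and counts under 10 for most traces, small differences after D12 could not be resolved.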

Other observations

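To set the traces on D30 beside other genes, a class was formed from control libraries of D0 and D12 alone: genes with at least 10 CPM on D0 and under 1% of that level left on D12, a limit chosen after the data had been seen. It held 28 of the 24249 genes tested, POU5F1, NANOG, TDGF1 and PRDM14 among them. On D30 the median gene of this class stood at 0.0% and 0.0696% of its D0 level in the control libraries and at 1.39% and 0.672% in the TMG libraries. In 11 of the 28 the control libraries of D30 had 0 counts, so that TMG could not lie below them, and several others had a few counts. The direction of a change was therefore largely set by how the class was formed, and the values are a description. None of the 28 passed at an FDR of 5% by edgeR (0.0% of all genes). At an unadjusted p under 0.05 14 were higher, against 7.1% of all genes, and 10 of these were among the 24 that are not members. DESeq2 called 5 as higher, among them POU5F1, NANOG and TDGF1, against 1.56% of all genes. Because the forming of the class largely set the direction, nothing is read from these counts against the shares.

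Beside ESRG, the class held, to name a few chosen after their values were seen, LINC00678 with 0.094 and 0.151 CPM in the control and 0.68 and 0.379 CPM in the TMG libraries of D30. The homeobox gene GBX2 had 0 and 0.151 CPM against 0.583 and 1.04 CPM, and LRAT 0.94 and 1.1 CPM against 3.21 and 2.84 CPM. In GLB1L3 (6.2 and 2.36 CPM against 3.21 and 2.08 CPM) and in FLT1, a receptor of VEGF (0.564 and 3.26 CPM against 3.89 and 2.56 CPM), the arms overlapped.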
